A study of Drosophila melanogaster with 18 samples.

Results

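The binding of the GAGA factor (GAF) was compared with acetylation of histone H4 at lysine 8 (H4K8ac) in interphase Drosophila melanogaster embryos. The comparison rested on 4970 interphase GAF peaks and 5806 interphase H4K8ac peaks, chosen because they are the deposited lists of interphase peaks of each mark, not split by what happens in mitosis. They were called from 5 of the 18 samples, namely 3 anti-GAF and 2 anti-H4K8ac chromatin immunoprecipitation (ChIP-seq) samples, and 5 input samples belonged to them. All of these samples were whole wild type yw embryos collected, per the labels, from 1 to 2.5 h after egg laying (the methods give a later start) and stained for H3S10ph, a mark of mitotic chromosomes. A flow cytometer and then the hand separated the unstained interphase embryos from mitotic ones, and 1000 embryos went into each sample, so a value describes a pool of nuclei of different fates. GAF was precipitated with an antibody of the G. Cavalli laboratory and H4K8ac with a commercial antibody from abcam. The authors called each list on the merged replicates, and the lists hold positions without heights. The spread between replicates and the read depth behind a peak are therefore unknown here, and each 95% Wilson interval below covers counting error only.

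GAF, the product of Trithorax-like (Trl), is a zinc finger protein that binds GA-rich DNA. It recruits chromatin remodellers and helps to keep promoters and enhancers open, and is known as a pioneer factor in the early fly embryo. H4K8ac is laid down by histone acetyltransferases, is found at active promoters and enhancers, and appears around the time when the embryo starts to transcribe its own genome.

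GAF and H4K8ac peaks had different shapes. GAF peaks had a median length of 400 bp (quartiles 250 and 600) and covered 2.35 Mb, or 1.71% of the genome. H4K8ac peaks had a median length of 1100 bp (quartiles 300 and 2550), reached 57900 bp and covered 12.6 Mb, or 9.16% of the genome. A promoter, taken as 100 bp on each side of a transcription start site (TSS), was touched by 37.7% of GAF peaks (36.3 to 39.0%) and 54.8% of H4K8ac peaks (53.5 to 56.1%).

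The promoters of 6 patterning regulators and 2 stress genes give examples of sequence under these peaks. In the stretches below, written 5′ to 3′ on the strand of the gene in dm6 (RefSeq assembly of release 6), capitals mark every base of a GAGAG or CTCTC, the element bound by GAF on either strand. For each gene the stretch is the 120 bp inside the GAF peak and near the outermost TSS that held most such elements. The mesoderm repressor gene snail (sna, chr2L:15478370-15478489, minus strand, upstream of the TSS) had GAF and H4K8ac together, as did scylla (scyl, chr3L:11252107-11252226, plus strand, upstream), a stress response gene. Its relative charybde (chrb, chr3L:11487349-11487468, plus strand, upstream) had GAF without H4K8ac at this outermost TSS. The snail relative escargot (esg, chr2L:15333759-15333878, plus strand, across the TSS) had GAF alone. So had the terminal gap gene tailless (tll, chr3R:30852185-30852304, plus strand, upstream), the Hox gene Ultrabithorax (Ubx, chr3R:16734497-16734616, minus strand, upstream), the Hox gene Antennapedia (Antp, chr3R:6999265-6999384, minus strand, upstream) and Dorsocross1 (Doc1, chr3L:9041276-9041395, plus strand, across the TSS), a T-box gene of the dorsal ectoderm. These 4 were picked after their values were seen, the last one because its GAF peak held no such element.
sna: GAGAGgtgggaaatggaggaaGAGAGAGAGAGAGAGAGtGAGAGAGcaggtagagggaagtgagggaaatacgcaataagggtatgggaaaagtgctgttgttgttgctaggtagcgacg
scyl: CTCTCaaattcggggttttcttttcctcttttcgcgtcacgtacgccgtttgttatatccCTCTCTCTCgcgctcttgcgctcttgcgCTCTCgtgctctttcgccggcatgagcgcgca
chrb: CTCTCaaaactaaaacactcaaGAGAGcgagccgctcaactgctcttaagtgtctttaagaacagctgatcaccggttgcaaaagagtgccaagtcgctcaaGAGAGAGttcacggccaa
esg: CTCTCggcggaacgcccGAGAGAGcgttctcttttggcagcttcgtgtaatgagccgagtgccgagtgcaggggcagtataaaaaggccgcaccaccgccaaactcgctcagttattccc
tll: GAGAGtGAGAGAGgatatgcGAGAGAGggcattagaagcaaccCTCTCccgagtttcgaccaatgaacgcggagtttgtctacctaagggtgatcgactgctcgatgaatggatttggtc
Ubx: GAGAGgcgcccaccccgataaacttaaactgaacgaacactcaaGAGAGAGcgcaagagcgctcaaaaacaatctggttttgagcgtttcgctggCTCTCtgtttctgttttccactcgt
Antp: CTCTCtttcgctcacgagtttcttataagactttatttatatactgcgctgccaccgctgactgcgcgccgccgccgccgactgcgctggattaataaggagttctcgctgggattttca
Doc1: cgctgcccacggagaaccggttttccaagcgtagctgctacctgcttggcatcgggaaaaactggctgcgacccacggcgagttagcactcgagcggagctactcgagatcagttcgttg

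Counted without overlap on both strands, the stretches held 5 elements at sna, 4 at tll, 3 each at scyl, chrb and Ubx, 2 at esg, 1 at Antp and none at Doc1. Promoters of the opposite kind, with H4K8ac and without GAF, are shown for 3 subunits of the proteasome, the complex that degrades tagged proteins. They were picked after their values were seen, because they hold the DNA replication-related element (DRE, TATCGATA, in capitals), which the factor DREF binds at many housekeeping promoters. Each runs from 100 bp upstream to 20 bp past the outermost TSS, and the GAF element occurred in none of them. Prosalpha6 lies at chr2L:10221251-10221371 on the plus strand, Prosbeta6 at chr3L:16610398-16610518 on the minus strand and Rpt5 at chr3R:23752776-23752896 on the plus strand.
Prosalpha6: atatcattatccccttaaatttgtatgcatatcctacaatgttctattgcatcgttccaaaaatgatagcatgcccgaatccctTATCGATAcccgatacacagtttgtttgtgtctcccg
Prosbeta6: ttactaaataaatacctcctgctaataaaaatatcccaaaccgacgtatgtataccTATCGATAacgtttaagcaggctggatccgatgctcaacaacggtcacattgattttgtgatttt
Rpt5: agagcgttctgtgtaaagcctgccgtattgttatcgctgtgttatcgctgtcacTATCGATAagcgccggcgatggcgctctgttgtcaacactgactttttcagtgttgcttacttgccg

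Most interphase GAF peaks lay outside H4K8ac. An H4K8ac peak shared at least 1 bp with 1146 of the 4970 GAF peaks (23.1%, 21.9 to 24.3%), and 3824 shared none. Of the 1146, 822 were covered by H4K8ac from end to end, and 324 reached across its border. The centre of the GAF peak lay inside an H4K8ac peak at 960 sites (19.3%, 18.2 to 20.4%). Neighbouring H4K8ac peaks were at least 2000 bp apart, so shorter gaps may have been joined in this list. Here and below, a GAF peak counted as covered or acetylated may therefore lie in such a gap. In the other direction, 833 of the 5806 H4K8ac peaks held a GAF peak (14.3%, 13.5 to 15.3%). Of these, 628 held 1 GAF peak, 141 held 2, 41 held 3 and 23 held 4 or more. The shared bases made up 24.9% of all GAF bases and 4.64% of all H4K8ac bases.

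Where a GAF peak lay in the genome went with how often it was acetylated. At promoters 33.3% of the 1872 GAF peaks overlapped H4K8ac (31.2 to 35.5%), against 16.8% of the 3098 distal peaks (15.6 to 18.2%). GAF peaks centred within 250 bp of a TSS had an acetylated centre in 26.7% of cases (24.6 to 29.0%), those further away but within 1000 bp in 28.2% (25.7 to 30.9%), and those beyond 1000 bp but within 5000 bp in 13.6% (11.8 to 15.7%). Beyond 20000 bp, the centre was acetylated at 7 of 410 peaks (1.71%, 0.829 to 3.48%). Peaks centred in exons were acetylated in 34.1% of cases (30.5 to 37.9%), peaks in introns in 18.9% (17.3 to 20.5%) and peaks between genes in 8.51% (7.13 to 10.1%).

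These shares stood above the acetylated share of the same kind of sequence everywhere but at promoters. H4K8ac covered 17.6% of all exonic bases, 6.18% of intronic bases and 4.35% of intergenic bases outside promoters. It covered 29.8% of promoter bases, and the centre was acetylated at 204 of the 727 GAF peaks centred in a promoter (28.1%, 24.9 to 31.4%). No test was made of these differences, since peaks of one list are not replicates, and mappability and input signal under the peaks were not tested.

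GAF peaks that missed H4K8ac lay at widely different distances from it. The distance from the edge of such a peak to the nearest acetylated peak had a median of 7250 bp (95% interval 6750 to 7850 bp) and quartiles of 2100 and 22950 bp. With H4K8ac peaks of at least 500 bp only, the median was 13025 bp. At 45 of them, the H4K8ac peak touched the GAF peak without a shared base. It lay within 500 bp of 316 of the 3824 peaks (8.26%), within 1000 bp of 565 (14.8%), within 5000 bp of 1601 (41.9%) and within 10000 bp of 2185 (57.1%). At 400 peaks (10.5%) it was over 50000 bp away. The median was 4825 bp for the 1248 promoter peaks (4400 to 5400 bp) and 8975 bp for the 2576 distal peaks (8100 to 9900 bp). For comparison, positions taken every 1000 bp along 2L, 2R, 3L, 3R, 4 and X and lying outside H4K8ac were a median of 11599 bp from it, and GAF peaks of these chromosomes 7050 bp.

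**Figure D1:**
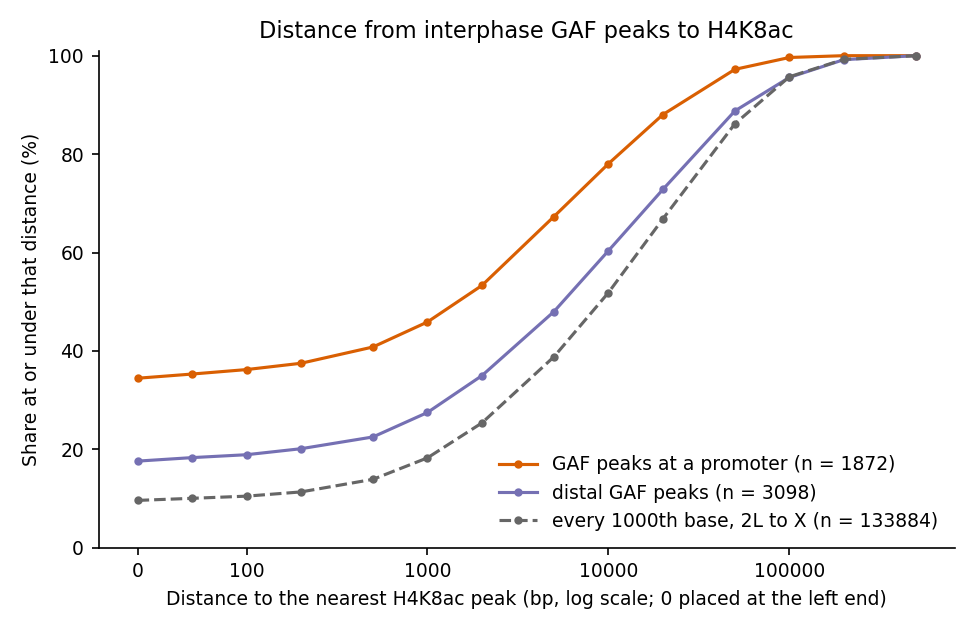
Share of GAF peaks (y axis, %) that overlap, touch or lie within a given distance (x axis, bp on a log scale) of the nearest H4K8ac peak, for 1872 promoter peaks, 3098 distal peaks and 133884 positions spaced 1000 bp apart. Within 1000 bp the curves pass 45.9% for promoter peaks, 27.5% for distal peaks and 18.3% for the spaced positions.

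Longer GAF peaks overlapped H4K8ac more often. Peaks of 100 to 250 bp overlapped H4K8ac in 13.9% of 1628 cases (12.3 to 15.7%), peaks of 300 to 400 bp in 17.0% of 1137 (14.9 to 19.3%), peaks of 450 to 600 bp in 23.8% of 1086 (21.4 to 26.5%) and peaks of 650 bp or more in 41.8% of 1119 (39.0 to 44.7%). A longer peak has more bases that can meet another peak, but its centre showed the same order, from 13.3% in the shortest peaks (11.8 to 15.1%) to 32.0% in the longest (29.3 to 34.8%). The mean length was 653 bp (SD 504, 1146 peaks) for overlapping GAF peaks and 419 bp (SD 314, 3824 peaks) for the others.

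Over whole peaks, GAGAG numbers were alike. Overlapping peaks held 4.51 ± 3.66 elements (mean ± SD) and the others 4.27 ± 4.23, with a median of 4 in both. Within every length class the acetylated peaks held fewer. At 100 to 250 bp they held 1.68 ± 1.08 (226 peaks) against 2.68 ± 1.46 (1402 peaks), and at 650 bp or more 7.24 ± 4.07 (468 peaks) against 8.35 ± 7.95 (651 peaks). Per kilobase of peak the mean was 7.45 ± 4.13 inside and 11.8 ± 7.66 outside, and the SDs over peaks overlapped throughout. In the central 400 bp of each peak, the means were 3.06 ± 1.91 and 3.74 ± 2.24.

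By the number of elements in the whole peak, which rises with length, the share overlapping H4K8ac was 29.3% at 1 element, 21.6% at 2 or 3, 18.1% at 4 or 5, 26.4% at 6 to 9 and 32.5% at 10 or more. In the central 400 bp, where length matters less, the share fell throughout. Promoter GAF peaks with 0 or 1 element in their central 400 bp had an acetylated centre in 38.9% of 337 cases (33.8 to 44.2%), those with 2 or 3 in 27.9% of 731 (24.8 to 31.3%), those with 4 or 5 in 23.8% of 555 (20.4 to 27.5%) and those with 6 or more in 19.7% of 249 (15.2 to 25.1%). Distal peaks showed the same order at lower levels, from 22.8% of 338 (18.6 to 27.5%) to 7.54% of 491 (5.52 to 10.2%). Repeats moved with this result. Peaks with at least 50% of their bases masked as repeats made up 19.5% of the GAF peaks outside H4K8ac (744) and 2.53% of those overlapping it (29). Among the peaks below 50% masked, the share still went from 34.8% at 0 or 1 element (31.0 to 38.7%) to 12.3% of 697 at 6 or more.

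**Figure D2:**
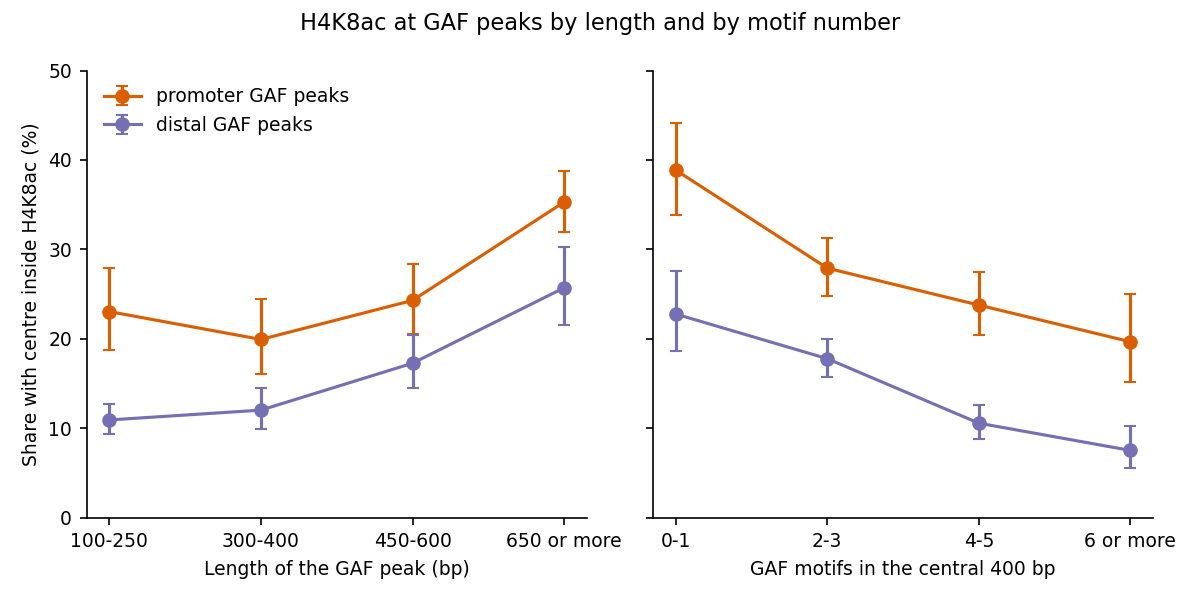
Share of GAF peaks whose centre lies inside an H4K8ac peak (y axis, %), by length of the GAF peak in bp (left) and by the number of GAF elements in its central 400 bp (right). Points are promoter and distal peaks, and bars are 95% Wilson intervals. At promoters the share is 23.1%, 19.9%, 24.3% and 35.3% by rising length and goes from 38.9% to 19.7% with motif number.

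Long acetylated regions held GAF more often than short ones. A GAF peak occurred in 3.27% of the 1313 H4K8ac peaks of 100 to 250 bp (2.44 to 4.38%), in 16.0% of the 1123 above 1500 and up to 3000 bp (14.0 to 18.3%) and in 48.3% of the 493 above 6000 bp (43.9 to 52.7%). Per acetylated length, the shortest class had 20.8 GAF peaks per 100 kb. The class above 1500 and up to 3000 bp had 8.53 and the longest 8.69. These rates count every GAF peak sharing any base with H4K8ac, also where it reaches past the edge. The median GAF peak, at 400 bp, is longer than any H4K8ac peak of the shortest class. Such edge overlaps raise the rate most in that class. No correction was made for them, so the order of density between the classes was not tested. Of 787 GAF centres inside acetylated regions of at least 2000 bp, 114 lay within 500 bp of an edge (14.5%, 12.2 to 17.1%), and the median distance to the nearest edge was 1600 bp. A promoter was touched by 81.9% of the H4K8ac peaks with GAF (79.1 to 84.3%) and by 50.3% of those without (48.9 to 51.7%).

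The acetylated region with most GAF peaks held 9. It lay at chrX:2292451-2308701, over the promoters of CG2865 and Raf, a kinase of the receptor tyrosine kinase pathway, and was 16250 bp long. The region of 34250 bp at chr2L:2158101-2192351, over the promoter of the ETS repressor gene anterior open (aop) and of 6 further genes, held 7, as did the one at chr3R:16232101-16259501 over taranis (tara). The regions of patched (ptc, chr2R:8648601-8670701), the Hedgehog receptor gene, and of the cell cycle regulator E2f1 (chr3R:21629251-21647551) held 6 each. The region over aop was also the third longest. The longest H4K8ac region, 57900 bp at chr3L:706301-764201 over extra macrochaetae (emc) and its neighbours, held 3 GAF peaks. The region of 45700 bp over corto (chr3R:5083051-5128751) held 1, that of 32950 bp over jing (chr2R:6585001-6617951) held 3, and that of 32900 bp at doughnut (dnt, chr2L:19311651-19344551), which covered the promoters of 2 non-coding RNAs, held none.

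The longest GAF peak that overlapped H4K8ac, 4800 bp over the promoters of ball, His2Av and SPARC (chr3R:26865951-26870751), held 2 GAGAG elements. The peak of 4200 bp at the kinase gene Tlk (chrX:3777101-3781301) held 34, the peak of 3450 bp over the promoter of Trl, the GAF gene itself (chr3L:14756151-14759601) and partly outside acetylation, held 22, the peak of 3600 bp at the kinase gene Lk6 (chr3R:11758351-11761951) held 18, and the peak of 3750 bp within kirre (chrX:2789601-2793351) held 6. Outside H4K8ac, the peak of 3000 bp at foraging (for, chr2L:3655301-3658301), a cGMP-dependent kinase gene, held 11 and lay 15600 bp from acetylation. The peak of 2900 bp at scribbler (sbb, chr2R:18355151-18358051) held 25 and lay 11150 bp away. The other 3 of the longest such peaks lay at chromosome ends in sequence that was 90.1 to 100% masked.

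Promoters were then sorted by which peaks they met, over 18315 genes of which 13981 code for proteins. GAF met the promoters of 1830 genes (9.99%) and H4K8ac those of 6637 (36.2%). Both met 750 promoters (4.1%), GAF alone 1080 (5.9%), H4K8ac alone 5887 (32.1%) and neither 10598. At 642 of the 750, the GAF peak itself shared bases with H4K8ac, and at the others the peaks met the promoter window or different TSSs of the gene without sharing a base.

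How often GAF-bound promoters carried H4K8ac, relative to the others, depended on which genes and TSSs were counted. Of the 1830, 41.0% were acetylated (38.8 to 43.2%), against 35.7% of the 16485 without GAF (35.0 to 36.4%). Among protein-coding genes the shares were 41.2% of 1610 (38.9 to 43.7%) and 42.6% of 12371 (41.7 to 43.5%). The number of TSSs moved with this result. Among protein-coding genes with a single TSS, 28.1% of 668 GAF-bound promoters were acetylated (24.9 to 31.7%) and 39.8% of 9614 others (38.9 to 40.8%), while with 3 or more TSSs the shares were 53.8% of 485 (49.4 to 58.2%) and 54.2% of 648 (50.3 to 58.0%). By the outermost TSS alone, 31.6% of 1185 GAF-bound (29.0 to 34.3%) and 41.1% of 12796 GAF-free promoters (40.2 to 41.9%) were acetylated.

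**Figure D3:**
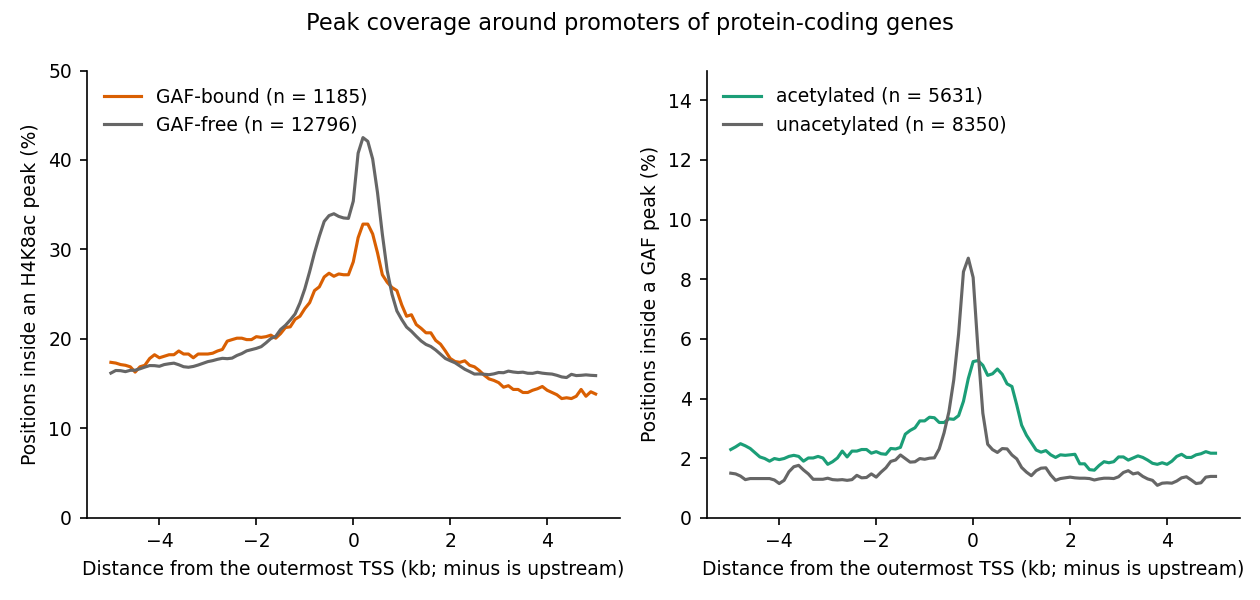
Share of positions inside an H4K8ac peak (left, y axis in %) for 1185 GAF-bound and 12796 GAF-free promoters, and inside a GAF peak (right, %) for 5631 acetylated and 8350 unacetylated ones, by distance from the outermost TSS in kb (protein-coding genes, minus values upstream). H4K8ac was widest 200 bp past the TSS in both sets, at 32.8% and 42.5%, and GAF peaked 100 bp upstream of unacetylated TSSs, at 8.71%.

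Around the TSS, acetylation had its highest share at the same place with and without GAF. It was nearly level over the 500 bp upstream of the TSS and most frequent 200 bp past it, where H4K8ac covered 32.8% of GAF-bound and 42.5% of GAF-free promoters. At 1000 bp past the TSS the shares were 23.8% and 22.2%, so the lead of GAF-free promoters was not kept there. They led at 1000 bp upstream, with 23.4% of GAF-bound and 25.6% of GAF-free promoters. Further upstream GAF-bound promoters were ahead, with 18.3% against 17.5% at 3000 bp and 17.4% against 16.2% at 5000 bp. At 3000 bp past the TSS GAF-free promoters led again, with 15.1% of GAF-bound and 16.2% of GAF-free promoters. GAF coverage reached 8.71% of unacetylated promoters at 100 bp upstream of the TSS and 5.27% of acetylated ones at 100 bp past it. Since these promoters were sorted by the peaks at the TSS, only the outline away from the window is a result, and it was not tested.

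GAF-only promoters had H4K8ac nearby in many cases. The nearest H4K8ac peak lay a median of 3720 bp from their TSSs (3389 to 4315 bp) and within 1000 bp of 259 of the 1080 (24.0%). For promoters with neither peak, the median was 6265 bp (5964 to 6551 bp), with 1665 of 10598 within 1000 bp (15.7%). The distance was taken from the closest TSS of each gene. Protein-coding genes had a mean of 1.95 TSSs in the GAF-only class and 1.25 with neither peak, and the comparison was not adjusted for this. At the 212 GAF-only promoters with H4K8ac within 1000 bp of the outermost TSS, the nearest one lay on the transcribed side in 110 (51.9%, 45.2 to 58.5%). For 811 protein-coding promoters that were GAF-only by the outermost TSS, coverage close to it was higher on the transcribed side. There 6.66% of positions were acetylated 400 bp past the TSS against 2.22% as far upstream, and 7.89% against 5.18% at 1000 bp. Further out the order turned, with 7.52% past the TSS against 8.88% upstream at 2000 bp and 8.39% against 12.1% at 5000 bp.

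Over gene bodies, GAF met 2561 genes (14%) and H4K8ac 8328 (45.5%). Both met 1709 genes (9.33%), GAF alone 852 (4.65%) and H4K8ac alone 6619 (36.1%). Of the 1080 genes with a GAF-only promoter, 423 had both peaks in the body. Genes with a GAF-only promoter were long, with a median of 11138 bp for protein-coding genes, against 8724 bp with both, 2282 bp with H4K8ac alone and 1694 bp with neither. A longer gene has more room for peaks of both kinds, so the shares were also taken by length. Up to 2000 bp the intervals overlapped, with 46.4% of 192 GAF-bound gene bodies acetylated (39.4 to 53.4%) and 41.5% of 6356 others (40.3 to 42.7%). Above 2000 and up to 5000 bp, 72.6% of 387 GAF-bound gene bodies were acetylated (68.0 to 76.8%) and 62.5% of 3556 others (60.9 to 64.1%). Above 30000 bp the shares were 69.7% of 515 (65.6 to 73.5%) and 38.1% of 155 (30.8 to 45.9%).

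Gene lists fell into different promoter classes. Over all genes, 4.1% of promoters had both peaks, 5.9% GAF alone, 32.1% H4K8ac alone and 57.9% neither. These shares are the background of every list below. In 8 lists of patterning regulators together (81 genes), 46 had GAF alone, 15 had both, 5 had H4K8ac alone and 15 had neither. GAF thus met 75.3% of them, beside 9.99% of all genes, and H4K8ac 24.7%, beside 36.2%. In 4 lists of housekeeping genes together (224 genes), 207 had H4K8ac alone, 4 had both, 13 had neither and no gene had GAF alone. These are counts of chosen lists and were not tested.

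**Figure D4:**
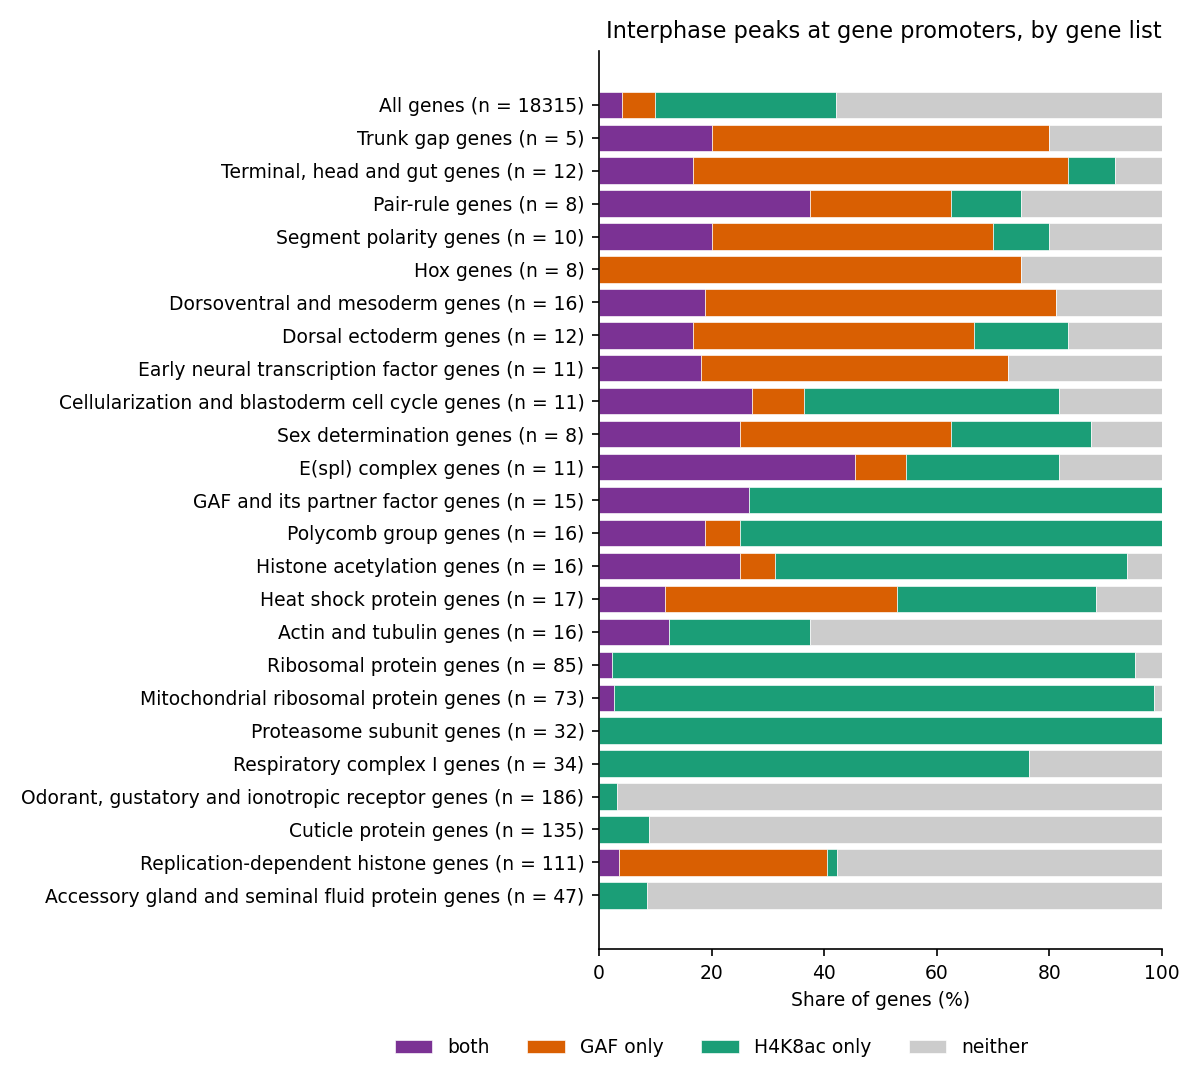
Share of genes (x axis, %) in each promoter class, with both peaks, GAF only, H4K8ac only or neither, for all 18315 genes and for 24 gene lists, with the number of genes beside each name. GAF only leads in all patterning lists but the pair-rule genes, and H4K8ac only leads among ribosomal, proteasome and complex I genes.

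Among the trunk gap genes, which divide the blastoderm into broad regions, GAF alone met Kruppel (Kr), knirps (kni) and knirps-like (knrl), both peaks met hunchback (hb), and neither met giant (gt). The GAF peak of hb, 650 bp with 5 GAGAG elements, lay in an H4K8ac peak of 11450 bp. At Kr the GAF peak (500 bp, 2 elements) ended 700 bp from acetylation, at kni (700 bp, 5 elements) 1250 bp and at knrl (1950 bp, 13 elements) 10750 bp. Acetylation was therefore next to the GAF-bound promoters of Kr and kni but far from that of knrl.

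Among 12 terminal, head and gut genes, 8 had GAF alone and 2 had both. The GAF peak of tll (750 bp, 6 elements) lay 10500 bp from H4K8ac and that of crocodile (croc, 950 bp, 12 elements) 11800 bp, whereas that of huckebein (hkb, 100 bp, 2 elements) lay 350 bp away and that of empty spiracles (ems, 550 bp, 3 elements) 200 bp. Both peaks met caudal (cad), a posterior regulator, and cap-n-collar (cnc), although a promoter GAF peak of cnc (350 bp, 3 elements) lay 1400 bp from H4K8ac. The maternal anterior gene bicoid (bcd) had H4K8ac alone, in a peak of 10900 bp, and its nearest GAF peak was 31934 bp from the TSS.

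Pair-rule genes, which are expressed in stripes, were the most mixed. hairy (annotated as hry), runt (run) and odd skipped (odd) had both peaks, even skipped (eve) and sloppy paired 2 (slp2) had GAF alone, fushi tarazu (ftz) had H4K8ac alone, and paired (prd) and odd paired (opa) had neither. At run, GAF (800 bp, 8 elements) and H4K8ac (550 bp) met different TSSs, and the GAF peak ended 250 bp from another acetylated peak of the gene. The GAF peak of eve (650 bp, 7 elements) ended 250 bp from acetylation. Among segment polarity genes, ptc and naked cuticle (nkd) had both, engrailed (en), invected (inv), gooseberry (gsb), gsb-n and midline (mid) GAF alone, cubitus interruptus (ci) H4K8ac alone, and the ligand genes wingless (wg) and hedgehog (hh) neither. GAF at en covered 1000 bp with 14 elements and ended 100 bp from H4K8ac.

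No Hox promoter was acetylated. GAF alone met 6 of the 8 Hox genes, which set segment identity, namely Dfd, Scr, Antp, Ubx, abd-A and Abd-B, while lab and pb had neither peak. Most were nevertheless acetylated elsewhere in the gene, with 7 H4K8ac peaks in the body of Ubx beside 6 GAF peaks, 6 in Antp beside 8, and 3 in abd-A beside 4. Abd-B had 4 GAF peaks and no H4K8ac, with the nearest 19064 bp from a TSS.

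Among 16 dorsoventral and mesoderm genes, 10 had GAF alone, 3 had both (sna, rho and Mef2) and none had H4K8ac alone. A promoter GAF peak of Mef2 (650 bp, 5 elements) lay 17950 bp from H4K8ac. The GAF peak of sna (750 bp, 9 elements, chr2L:15478101-15478851) lay wholly within an H4K8ac peak of 3800 bp. At esg the GAF peak of 1750 bp, also with 9 elements, spanned the TSS and ended 100 bp before an H4K8ac peak of 2750 bp over the gene body (chr2L:15334251-15337001). At twist (twi), the mesoderm determinant, the GAF peak (550 bp, 2 elements) likewise ended 100 bp from H4K8ac, and at short gastrulation (sog), a BMP antagonist gene, it ended 7600 bp away (550 bp, 10 elements). H4K8ac was found in the body of 35 of the 46 patterning genes with a GAF-only promoter and within 1000 bp of a TSS in 19, and its median distance from their TSSs was 1491 bp (range 163 to 38661 bp). Of all 1080 genes with a GAF-only promoter, 423 had both peaks in the body and 29 had H4K8ac alone there. H4K8ac lay within 1000 bp of a TSS in 24.0% of the 1080, at a median of 3720 bp. Gene length was not adjusted for.

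At scyl, the GAF peak of 800 bp with 5 elements lay wholly within an H4K8ac peak of 2700 bp over the start of the gene (chr3L:11251651-11254351). At chrb, the peak at the outermost TSS (900 bp, 5 elements, chr3L:11487051-11487951) had no H4K8ac, and a second peak of 450 bp with 5 elements at an internal TSS lay in an acetylated peak of 2300 bp (chr3L:11492351-11494651), so the class of both came from the internal TSS. Ca-beta, a calcium channel subunit gene, had GAF and H4K8ac in its body without overlap and neither at a promoter. Muc11A, listed with these genes, had neither interphase peak, with the nearest H4K8ac 1744 bp and the nearest GAF 16755 bp from its TSS. The ribosomal protein gene RpL32 lay in an H4K8ac peak of 10300 bp, and its nearest GAF peak was 23667 bp from the TSS.

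Housekeeping promoters were acetylated without GAF. H4K8ac alone met 79 of 85 ribosomal protein genes, 70 of 73 mitochondrial ribosomal protein genes, all 32 proteasome subunit genes and 26 of 34 genes of respiratory complex I, and GAF met 2, 2, 0 and 0 of them. Genes for chromatin proteins were acetylated too, some with GAF. Among 15 genes of GAF and its partner factors, all 15 were acetylated, and GAF also met Trl, pipsqueak (psq), lola like (lolal) and the pioneer factor gene zelda (zld), but none of the remodeller subunit genes such as brm, mor, Iswi and E(bx). A promoter GAF peak of psq (400 bp, 2 elements) lay 6800 bp from H4K8ac. Among 16 Polycomb group genes, 15 were acetylated, and GAF met ph-p, ph-d, Psc and Su(z)2. Of the 16 histone acetylation genes, 14 were acetylated, and GAF met 5, among them nejire (nej, the CBP acetyltransferase) and fs(1)h, a reader of acetylated H4.

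The Enhancer of split complex, whose genes answer to Notch signalling, often had both peaks. In 5 of its 11 genes GAF and H4K8ac met the promoter, 3 had H4K8ac alone, 1 GAF alone and 2 neither. The shares over all genes were 4.1%, 32.1%, 5.9% and 57.9%. An acetylated region of 21500 bp covered the promoters of m3, m4, m5, m6, m7 and m8, and GAF peaks lay in it at m3, m7 and m8. Among 11 genes of cellularization and the blastoderm cell cycle, H4K8ac met 8 (72.7%, beside 36.2% of all genes), with GAF at trbl, aay and CycE. The mitotic Cdc25 phosphatase gene string (stg) had GAF alone (450 bp, 1 element), 750 bp from H4K8ac.

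Heat shock genes were spread over all 4 classes. GAF met 52.9% of the 17 listed and H4K8ac 47.1%, beside 9.99% and 36.2% of all genes. GAF alone met all 6 Hsp70 genes and Hsp22, GAF with H4K8ac met Hsp26 and Hsc70-3, and H4K8ac alone met Hsp23, Hsp27, Hsp67Ba, Hsp68, Hsp83 and Hsc70-4, and neither met Hsp67Bc and CG4456. The GAF peak of Hsp22 (850 bp, 9 elements) ended exactly where an H4K8ac peak of 10450 bp began, and that peak covered the promoters of Hsp23, Hsp26, Hsp27 and Hsp67Ba. The Hsp70 peaks held 4 to 6 elements. Those of Hsp70Aa and Hsp70Ab touched or met acetylation, and those of the other 4 copies lay 6650 to 30550 bp from it. The Hsp70 copies are nearly identical, so their values are uncertain, since reads may be assigned to the wrong copy.

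Genes used later in life mostly had neither peak. GAF met no promoter of 186 chemoreceptor genes, 135 cuticle protein genes or 47 accessory gland and seminal fluid genes. H4K8ac met 6, 12 and 4 of them. Neither peak was found at 96.8%, 91.1% and 91.5% of these promoters, beside 57.9% of all genes.

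The motifs around the outermost TSS differed between the classes, over 13981 protein-coding genes. GAGAG occurred within 100 bp of 60.2% of the 374 promoters with both peaks (55.1 to 65.0%), 68.3% of the 811 with GAF alone (65.0 to 71.4%), 14.5% of the 5257 with H4K8ac alone (13.6 to 15.4%) and 21.2% of the 7539 with neither (20.3 to 22.1%), beside 22.5% of all. The element TATCGATA (DRE) was most frequent with H4K8ac alone and least with GAF alone, with 7.22% (5.01 to 10.3%), 1.36% (0.759 to 2.41%), 15.8% (14.9 to 16.9%) and 2.96% (2.60 to 3.37%) in the same classes, beside 7.82% of all. Motif 1 (GGTCACACT), bound by M1BP at housekeeping promoters, occurred in 5.08%, 1.36%, 11.3% and 1.51%, beside 5.28% of all. Promoters with both peaks thus lay between the GAF-only and the H4K8ac-only class for all 3 motifs.

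**Figure D5:**
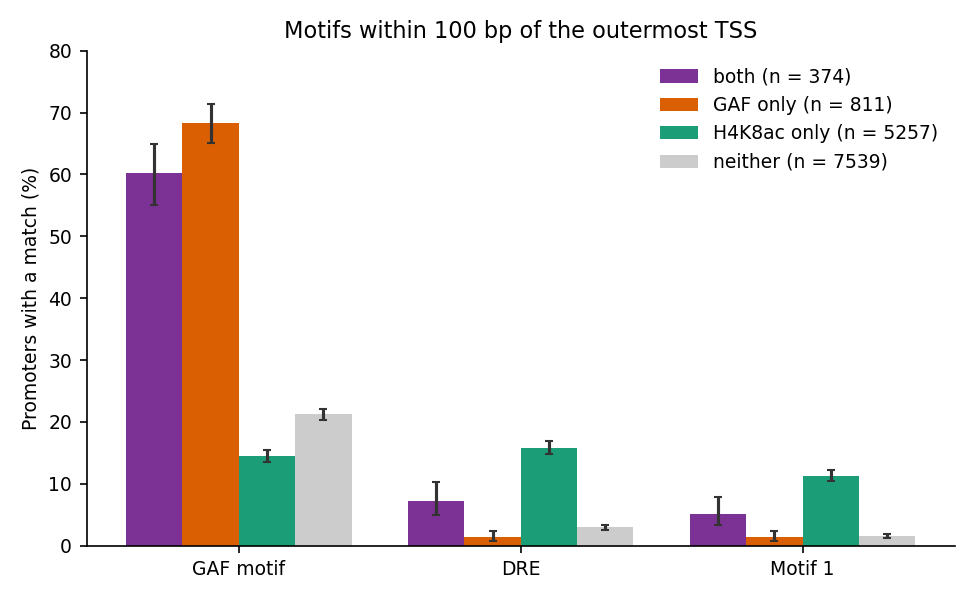
Share of promoters (y axis, %) with at least 1 match to the GAF motif, the DRE or Motif 1 on either strand within 100 bp of the outermost TSS, by promoter class, with 95% Wilson intervals. The GAF motif is at 60.2% and 68.3% in the 2 GAF-bound classes and the DRE at 15.8% in the H4K8ac-only class.

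Further elements were searched in the same windows. CGATA, which the insulator factor BEAF-32 binds and which is also part of the DRE, occurred in 43.3% of promoters with both, 24.9% with GAF alone, 54.8% with H4K8ac alone and 29.8% with neither, beside 39.3% of all. TATAAA occurred in 20.1%, 16.8%, 26.7% and 32.8%, beside 29.2% of all. GCCATNTT, bound by Pleiohomeotic, occurred in 5.88%, 2.47%, 5.21% and 4.24%, beside 4.55% of all. The Zelda element CAGGTAG occurred in 1.87%, 0.740%, 1.24% and 0.862%, beside 1.02% of all.

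Zelda elements were more frequent where GAF and acetylation met. In the central 400 bp of GAF peaks, CAGGTAG occurred in 5.81% of 516 promoter peaks with an acetylated centre (4.10 to 8.18%) and 2.48% of 1248 outside H4K8ac (1.75 to 3.50%). In distal peaks the shares were 4.05% of 444 (2.58 to 6.32%) and 1.90% of 2576 (1.44 to 2.51%), and 2.23% of 33472 windows of the same length spaced along the genome held it. The sna stretch printed above holds one such element in lower case, directly after its GA repeat. Runs of GAGAGAGAG went the other way. They occurred in 24.8% of promoter peaks with an acetylated centre (21.3 to 28.7%) and 31.7% of those outside H4K8ac (29.1 to 34.3%). The distal shares were 26.8% (22.9 to 31.1%) and 36.8% (35.0 to 38.7%), beside 1.31% of the spaced windows. Peaks that overlapped H4K8ac without an acetylated centre were in neither set.

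Some genes held many GAF peaks. Outside pericentromeric genes, the gene with both kinds of peak and the most GAF was Eip75B, an ecdysone-induced nuclear receptor gene, with 21 GAF peaks, 1 H4K8ac peak and no overlap between them. In the class of GAF alone, which has no H4K8ac in the body by definition, Mnt, which encodes a partner of Max, had 16 GAF peaks in 29872 bp, the phosphodiesterase gene dunce (dnc) 12, CHES-1-like 11, the nuclear receptor gene ftz-f1 10 and Hr4, another nuclear receptor gene, 9. The nearest H4K8ac lay 400 bp from a TSS at Mnt, 3389 bp at dnc, 18465 bp at CHES-1-like, 15805 bp at ftz-f1 and 1039 bp at Hr4. The genes Myo81F with 58 GAF peaks, Pzl with 24 and DIP-lambda with 12 span pericentromeric sequence, and no GAF peak in them overlapped acetylation. The non-coding RNA gene lncRNA:CR44357 held 13, of which 3 were acetylated.

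The share of acetylated GAF peaks differed between chromosomes. It was 27.7% on 2L (24.6 to 30.9%), 29.0% on 2R (26.2 to 32.0%), 21.4% on 3L (19.0 to 24.1%), 22.8% on 3R (20.4 to 25.4%), 17.9% on X (15.6 to 20.3%) and 17.3% of 75 peaks on chromosome 4 (10.4 to 27.4%). H4K8ac covered 6.53% of the X, 9.19 to 11.2% of the other large arms and 11.1% of chromosome 4. Among the large arms, the share of acetylated GAF peaks and the part covered by H4K8ac rose in the same order, X, 3L, 3R, 2L and 2R. Of the chromosomes named here, only chromosome 4 departed from this order. Its share rests on 75 peaks, and its interval overlaps those of all the large arms. Whether the shares followed the acetylated length was not tested.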

How the data were processed

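The deposited interphase peak lists were used as given, with chromosome, start and end positions in bp (dm6) and no signal values. Per the methods, the authors trimmed reads with cutadapt 1.16, mapped them with Bowtie2 to dm6, scaled coverage by read number, subtracted the input, averaged the replicates and thresholded the mean signal in the Integrated Genome Browser. The methods state 1 gap setting for both marks, but the smallest gap between peaks was 200 bp in the GAF list and 2000 bp in the H4K8ac list, so H4K8ac peaks may join sites that shorter gaps would split. Read depth is unknown from the lists, and no other column of per-sample values was used. The other lists of the series, mitotic ones and subsets, were not used here.

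A peak covered the bases from its start up to, but without, its end, and overlap meant 1 shared bp. Counts were computed in Python 3.11.15 with NumPy 2.4.6 and SciPy 1.17.1, checked with bedtools 2.31.1 and tested on simulated peaks with known overlaps. Genes came from Ensembl release 115 (18315 without transposable elements, 23732 distinct TSSs) and sequence from the RefSeq copy of dm6. In the 25 gene lists, 4 symbols were found by an older name and 1 was not found. Lists defined by a symbol pattern numbered 8. Named items were the genes the study names, the list members by class, the 5 longest and the 5 most GAF-rich H4K8ac peaks, the 5 longest GAF peaks inside and outside H4K8ac, the 5 farthest from it, and the 5 genes richest in GAF in each body class. The members and lists were chosen with earlier results of these data known. No significance test was made, since each list is 1 pooled measurement and peaks and genes are not replicates. Shares carry 95% Wilson intervals, and medians intervals from order statistics. Alternatives were other overlap rules, stricter peak lengths (400 bp for GAF, 500 bp for H4K8ac), other promoters, protein-coding genes, and 2L, 2R, 3L, 3R, 4 and X only.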

Additional observations from a re-analysis of the deposited data

How the results depend on the processing

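Both lists pool their replicates, so no replicate could be left out, and no paired analysis was possible because the columns carry no replicate. The lists give no heights, so depth limits cannot be set. The share of GAF peaks overlapping H4K8ac, 23.1%, became 19.2% with 50% of the GAF peak required, 19.3% by its centre, 30.8% for GAF peaks of at least 400 bp, 21.5% for H4K8ac peaks of at least 500 bp and 24.5% with GAF peaks merged within 2000 bp. It was 24.0% when touching peaks were counted as overlapping, an alternative chosen after seeing the data, as was the count by distinct TSS. The share of H4K8ac peaks with GAF, 14.3%, became 11.6% by the GAF centre, 10.9% for GAF peaks of at least 400 bp and 19.4% for H4K8ac peaks of at least 500 bp.

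The 750 promoters with both became 1232 with 500 bp on each side, 1240 with 1000 bp upstream and 100 bp downstream, and 457 with the outermost TSS only. In these 3 settings 50.5%, 48.4% and 32.7% of GAF-bound promoters were acetylated, beside 42.2%, 41.5% and 34.6% of all promoters. The GAF-bound share was 44.5% for GAF peaks of at least 400 bp and 34.2% by distinct TSS, and the share of all promoters was 42.4% for protein-coding genes, 34.3% for H4K8ac peaks of at least 500 bp and 34.6% by distinct TSS. GAF-bound promoters therefore lay above or below all promoters according to the definition. Genes with both numbered 2630 with 1000 bp on each side (1709 in the gene body), and genes with GAF alone 527 for GAF peaks of at least 400 bp (852 without the limit). The median distance of 7250 bp became 13025 bp with H4K8ac peaks of at least 500 bp.

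Mean GAGAG numbers inside and outside H4K8ac were 3.06 and 3.74 in the central 400 bp, 2.24 and 2.11 on the plus strand, and 5.68 and 5.85 for GAF peaks of at least 400 bp, so the order of the whole-peak means (4.51 and 4.27) held on the plus strand and turned in the other settings named. The cause was not tested.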

Other observations

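The replication-dependent histone gene cluster on 2L showed GAF at only some of its gene types. GAF met the promoters of all 23 His3 and all 22 His4 genes, which are transcribed from a shared intergenic region, and none of the 23 His1, 20 His2A and 23 His2B genes. These were 23 separate GAF peaks of 200 to 550 bp with 4 or 5 GAGAG elements each, and 2 of them overlapped H4K8ac. Only 3 H4K8ac peaks met promoters of the cluster. The repeats are nearly identical, so the copies cannot be told apart and their values are not independent.

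On the Y chromosome, 70 GAF peaks were listed and 1 overlapped H4K8ac (1.43%, 0.253 to 7.66%), where 16 H4K8ac peaks covered 0.174% of the chromosome. The 5 GAF peaks of 2L, 2R, 3L, 3R, 4 and X farthest from acetylation all lay within Myo81F on 3R, 298500 to 384500 bp from it, with 86.7 to 100% of their bases masked as repeats. GAF peaks with at least 50% masked bases overlapped H4K8ac in 29 of 773 cases (3.75%, 2.63 to 5.34%), against 1117 of 4197 others (26.6%, 25.3 to 28.0%). The longest GAF peak of the list, 6150 bp at the left end of 2L (positions 51 to 6201), held 124 GAGAG elements in 90.1% masked sequence and lay 11800 bp from H4K8ac.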
